A study of Mus musculus with 12 samples.

Results

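Sugars, amino acids and small peptides enter the body across the absorptive cells of the small intestine through carrier proteins of the solute carrier (Slc) families. RNA of these carriers was examined as 108 protein-coding genes, of 48526 gene rows in each library. They were chosen by symbol from 11 families: Slc1 (7 genes), Slc2 (12), Slc3 (2), Slc5 (13), Slc6 (21), Slc7 (16), Slc15 (5), Slc16 (14), Slc36 (4), Slc38 (11) and Slc43 (3). The symbol rule also took Slc7a6os, which is named for its place opposite Slc7a6 and encodes no carrier, and it was kept in the counts. In all 12 libraries 6 of the 108 had 0 counts, and 26 have exons that overlap another gene, whose reads cannot be separated in counts made without strand.

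The libraries came from 4 adult female mice aged 3 months, 2 control and 2 lacking the lysine acetyltransferase genes Kat2a and Kat2b (double knockout, DKO). Deletion was induced by intraperitoneal tamoxifen at 100 mg/kg, given daily for 4 days in ethanol and corn oil, and control mice received that vehicle alone. Epithelial cells were released with EDTA 2 days after the last injection. The extraction protocol places them in the upper (proximal) part of the small intestine, whereas the sample titles speak of whole intestine and give no region. Each mouse gave 3 libraries: unselected RNA (input) and RNA pulled down with J2 or with K1, antibodies that bind double-stranded RNA, so that 6 groups of 2 libraries were available. All 4 mice were injected, but tamoxifen reached the DKO mice only, and genotype and tamoxifen cannot be told apart. The promoter driving the recombinase and the strain were not given in the sources used here.

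As background, the enterocyte takes up glucose and galactose from the gut lumen by sodium-coupled transport and fructose by facilitated transport, and releases them through a carrier on the blood side. Short peptides enter with protons, and free amino acids enter through sodium-coupled, proton-coupled or exchanging carriers of overlapping specificity. Amino acid exchangers of the Slc7 family work as heterodimers with a heavy chain, Slc3a1 on the luminal side or Slc3a2 on the blood side.

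The promoters of 3 members are shown because the amino acid response, through which cells short of amino acids raise carriers such as Slc7a11, acts on a short DNA element, and because HNF4 factors drive the absorptive programme. The sequences are the 250 bases before the RefSeq start site (GRCm38.p6), on the strand of the gene, with the matched letters in capitals. For Slc7a11 (chr3:50443614-50443863, minus strand) the capitals mark TGATGNAA, the core of the C/EBP-ATF response element, once on each strand, starting 66 and 47 bases before the start site. For Slc7a7 (chr14:54417945-54418194, minus strand, the farthest upstream of its listed starts) they mark the same core 141 bases before the start site. For Slc3a1 (chr17:85028097-85028346, plus strand) they mark CAAAGTCCA, an HNF4 motif, 39 bases before the start site.
Slc7a11: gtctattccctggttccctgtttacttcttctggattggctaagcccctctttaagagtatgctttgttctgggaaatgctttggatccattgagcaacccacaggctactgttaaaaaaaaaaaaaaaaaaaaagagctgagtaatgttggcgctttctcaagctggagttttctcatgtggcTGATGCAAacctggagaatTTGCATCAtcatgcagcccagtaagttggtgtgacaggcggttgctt
Slc7a7: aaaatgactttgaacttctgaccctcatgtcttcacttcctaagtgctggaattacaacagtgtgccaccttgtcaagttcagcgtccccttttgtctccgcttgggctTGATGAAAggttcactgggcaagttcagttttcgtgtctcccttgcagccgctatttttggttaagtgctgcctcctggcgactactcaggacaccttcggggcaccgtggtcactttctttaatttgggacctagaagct
Slc3a1: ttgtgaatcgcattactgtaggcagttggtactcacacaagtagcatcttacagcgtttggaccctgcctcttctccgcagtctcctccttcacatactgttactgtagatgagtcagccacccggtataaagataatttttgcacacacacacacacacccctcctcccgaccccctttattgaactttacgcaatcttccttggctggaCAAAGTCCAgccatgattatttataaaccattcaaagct

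The promoter table held an entry for 79 of the 108 members, with 102 member promoters among 32851. Both strands were searched, and TGATGNAA was present in 3.452% of all promoters and in 4 member promoters, of Slc6a21, Slc7a11 and, at 2 start sites, Slc7a7. CAAAGTCCA was present in 0.384% of all promoters and in 1 member promoter. The core of the interferon-stimulated response element was found in 2.977% of all promoters and in 0 member promoters. These matches describe the letters in the window. In the input comparison below Slc7a11 and Slc3a1 were higher in DKO, while the 2 groups of Slc7a7 overlapped.

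Input libraries held 10307281 to 11474107 counts assigned to genes. Control pulldowns held 13308021 to 16139531, and DKO pulldowns 2220291 to 5826361. Counts of Kat2b in input were 359 and 343 in control against 118 and 114 in DKO, and those of Kat2a 222 and 228 against 84 and 148, so both targeted genes were lower where the labels say they were deleted. The pulldowns of the second DKO animal stood apart. Their enterocyte markers summed to 7447 CPM (counts scaled to library size) in J2 and 13560 in K1, against 32750 and 38270 in the first DKO animal and 20670 to 26180 in control. Reads aligned to several places were raised in the pulldowns of both DKO animals. They made up 15.8% of listed reads in J2 and 25.9% in K1 of the first animal and 29.5% and 46.7% of the second, against 5.54% to 6.56% in control pulldowns. In input, the enterocyte markers summed to 37980 to 52270 CPM, so the labelled cell type carried its defining RNA in all 4 input libraries.

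The carriers together took 1.21% ± 0.0274 of the gene counts of control input and 0.894% ± 0.0430 of those of DKO input (SD, n = 2 each). In J2 they took 1.04% and 1.01% in control but 0.682% and 0.368% in DKO, and in K1 0.889% and 0.921% against 0.711% and 0.400%. Both DKO libraries thus lay below both control libraries for each kind of library, with the second DKO animal lowest in the pulldowns. In bulk RNA, fewer cells of a type and less RNA per cell cannot be told apart.

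Levels between genes are compared per kilobase of annotated exon. In control input Slc5a1 (SGLT1, the main sodium-glucose cotransporter of the gut) had the highest level, 535 ± 81.2 CPM per kb (SD, n = 2). Slc15a1 (PEPT1, the proton-coupled peptide carrier) followed at 206 ± 2.05 CPM per kb. Slc6a19 (B0AT1, the main sodium-coupled carrier of neutral amino acids) had 158 ± 6.06 CPM per kb and Slc6a8, the creatine carrier, 156 ± 7.11, 2 levels whose spreads overlap. Next in order were Slc43a2 (LAT4, which releases neutral amino acids) at 122 ± 1.5, Slc2a5 (GLUT5, fructose) at 111 ± 2.58 and Slc7a9, a luminal exchanger light chain, at 96.3 ± 2.02 CPM per kb. The carrier RNA was concentrated in few genes: Slc5a1, Slc43a2 and Slc15a1 made up 39.9% and 36.8% of the members' counts in the 2 control input libraries. In DKO input the leading genes were Slc5a1, Slc6a8 and Slc15a1, with 45.2% and 40.4%. Between control and DKO input, the rank of Slc43a2 among the members went from 5 to 13, that of Slc6a20a from 11 to 33, that of Slc5a4b from 19 to 49 and that of Slc5a4a from 22 to 60, while Slc2a1 moved up from 38 to 23.

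Input RNA of DKO was compared with control to ask how carrier abundance changed without pulldown. Carriers moved in both directions: 3 luminal sugar carriers and the basolateral sugar carrier fell, as did the main releasing carriers of neutral amino acids, while the general glucose carrier Slc2a1, the cystine exchanger Slc7a11 and the lactate carrier Slc16a3 rose. Of the 108 members 76 had counts high enough to be tested and 32 had not. Of the 76, 36 were called by edgeR's quasi-likelihood test at a Benjamini-Hochberg adjusted p under 0.05, 16 higher and 20 lower in DKO, and 27 of the 36 changed at least 2-fold. Of all 15088 genes tested, 35.9% were called, 18.8% higher and 17.1% lower. The median log2 fold change was 0.01 over the members and 0.00 over all genes. A fit of all 12 libraries called 16 members, each among the 36, and 10.1% of all genes.

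Luminal sugar carriers were measured as 6 genes, of which 3 fell and 0 rose. Slc5a4a (ENSMUSG00000020229.4, chr10:76147451-76189265) and its neighbour Slc5a4b (ENSMUSG00000020226.9, chr10:76057494-76110961) belong to the SGLT3 pair, glucose-responsive relatives of SGLT1. Slc5a4a had 62.6 and 66.0 CPM in control against 1.29 and 2.02 CPM in DKO, with 677, 788, 13 and 23 counts in that order. This is a log2 fold change of -5.25 (edgeR adjusted p 3.67e-05, SE 0.201). Slc5a4b had 87.4 and 144 CPM in control against 3.67 and 6.16 CPM in DKO, a log2 fold change of -4.54 (SE 0.318, adjusted p 1.42e-04). For both genes the DKO libraries lay far below the control libraries, although the 2 control animals differed for Slc5a4b.

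Slc2a5 had 384 and 372 CPM in control against 212 and 184 CPM in DKO (log2 fold change -0.93, SE 0.133, adjusted p 0.00189). The DKO values lay below the control values with no overlap. Slc2a2 (GLUT2), which releases glucose and fructose on the blood side, went from 468 and 501 CPM to 311 and 277 CPM (log2 fold change -0.72, SE 0.133, adjusted p 0.00545). Slc5a1, the most abundant member, did not pass. It had 2431 and 1959.9 CPM in control against 2969 and 1948 CPM in DKO, so that the DKO animals spanned the control values (log2 fold change 0.16, SE 0.236, adjusted p 0.621). Slc5a9 (0.07) and Slc2a7 (-0.24) did not pass either.

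The general glucose carrier Slc2a1 (GLUT1, ENSMUSG00000028645.11), which many cells use for their own supply, rose. Its values were 13.4 and 13.1 CPM in control against 68.5 and 60.4 CPM in DKO (log2 fold change 2.28, SE 0.133, adjusted p 7.60e-05). Slc2a6 (GLUT6), an intracellular hexose carrier, had 3.42 and 3.01 CPM in control against 42.3 and 20.1 CPM in DKO (log2 fold change 3.27, SE 0.380, adjusted p 8.08e-04). Both genes were higher in each DKO animal, and for Slc2a6 the first DKO animal lay well above the second.

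**Figure D1:**
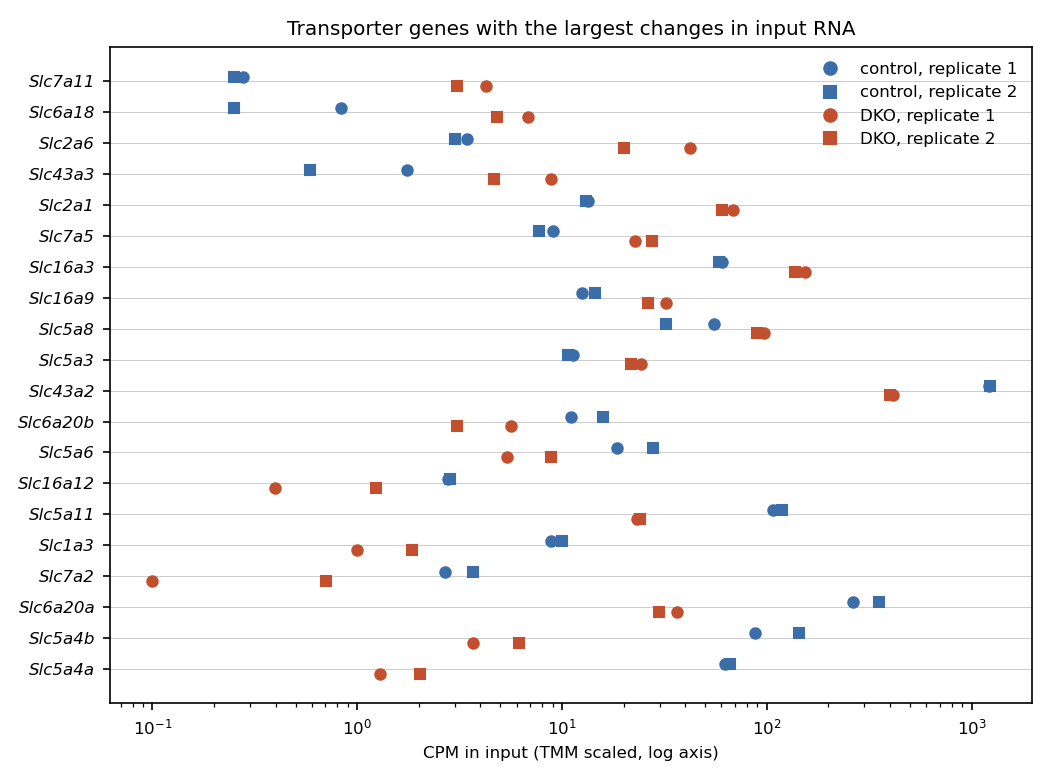
Scaled CPM in input (log axis) for the 10 members that rose most and the 10 that fell most. They were chosen among members that were called, had a mean of at least 20 counts and did not overlap between control and DKO. Circles and squares are the first and second animal of each genotype. Slc5a4a, at 62.6 and 66.0 CPM in control against 1.29 and 2.02 CPM in DKO, shows the widest gap.

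Peptide carriers were tested as 3 genes. Slc15a1 fell by a small amount, from 1014 and 999 CPM to 785 and 708 CPM (log2 fold change -0.43, SE 0.140, adjusted p 0.0479). That call was lost with the replicate number as a block (adjusted p 0.053), in the fit of all 12 libraries and without the first control library, where the adjusted p was 0.287. Slc15a4, a lysosomal peptide and histidine carrier, had a log2 fold change of 0.17 and did not pass.

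Luminal amino acid carriers were tested as 10 genes, of which 2 rose and 3 fell. Slc6a20a (SIT1, ENSMUSG00000036814.12), the carrier of proline and other imino acids, had 264 and 353 CPM in control against 36.3 and 29.8 CPM in DKO (log2 fold change -3.22, SE 0.191, adjusted p 7.97e-05). Its neighbour Slc6a20b fell by 1.64 on the log2 scale (SE 0.324, adjusted p 0.00718). Of the Slc6a20a transcript 24.4% is near-identical to Slc6a20b or Gm17120, and 14.3% of its exon length overlaps other genes. Of the Slc6a20b transcript 28.6% is near-identical to Sacm1l, which overlaps 21.1% of its exon length. Slc36a1 (PAT1), the proton-coupled carrier of small amino acids, had 475 and 363 CPM in control against 162 and 246 CPM in DKO (log2 fold change -1.04, SE 0.222, adjusted p 0.00998). All 3 genes were lower in both DKO animals.

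Slc6a14, a broad amino acid carrier known from the distal gut, had counts of 0 and 1 in control against 20 and 10 in DKO. The ratio was 31.9 with a 95% counting interval of 5.30 to 1300, so the size of its rise is poorly bounded. Slc3a1 (rBAT), the luminal heavy chain, had 125 and 143 CPM in control against 213 and 201 CPM in DKO (log2 fold change 0.62, SE 0.129, adjusted p 0.00854). It overlaps Prepl over 26.5% of its exons, and without the first control library its adjusted p was 0.109. Its light chain partner Slc7a9 had 262 and 254 CPM against 328 and 310 CPM, with no overlap, and did not pass (log2 fold change 0.31, adjusted p 0.0867). Slc6a19 had 811 and 768 CPM against 707 and 537 CPM (log2 fold change -0.34, SE 0.168, adjusted p 0.149).

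Carriers that exchange or release amino acids, mostly on the blood side, were tested as 13 genes, of which 3 rose and 5 fell. Slc43a2 (ENSMUSG00000038178.16), with the highest control level of this group, had 1211 and 1232 CPM in control against 414 and 401 CPM in DKO (log2 fold change -1.58, SE 0.137, adjusted p 2.85e-04). Slc7a8 (LAT2), an exchanger of neutral amino acids, went from 431 and 512 CPM to 172 and 154 CPM (log2 fold change -1.53, SE 0.147, adjusted p 3.79e-04). Slc16a10 (TAT1), which releases aromatic amino acids, fell by 0.78 on the log2 scale (SE 0.129, adjusted p 0.00356). The cationic amino acid carriers Slc7a1 and Slc7a2 also fell. Slc7a2 had counts of 29 and 44 in control against 1 and 8 in DKO (log2 fold change -2.90, SE 0.567).

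Slc7a11 (xCT), which imports cystine, had counts of 3 and 3 in control against 43 and 35 in DKO. The ratio was 13.8, with a 95% counting interval of 6.07 to 38.8 (adjusted p 8.38e-04). Slc7a5 (LAT1), an importer of large neutral amino acids, had 9.06 and 7.70 CPM in control against 22.8 and 27.5 CPM in DKO (log2 fold change 1.59, SE 0.184, adjusted p 7.97e-04). Slc7a6 rose by 1.04 on the log2 scale, with an adjusted p of 0.101 without the second control library. The shared heavy chain Slc3a2 had 273 and 299 CPM in control against 241 and 197 CPM in DKO and did not pass (log2 fold change -0.38, adjusted p 0.0750). None of the 3 lysosomal amino acid carriers tested by edgeR (Slc38a9, Slc38a7, Slc36a4) passed, and 0 of them had an unadjusted p under 0.05.

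Among monocarboxylate carriers 2 of 4 rose. Slc16a3 (MCT4), which exports lactate, had 60.6 and 58.4 CPM in control against 154 and 138 CPM in DKO (log2 fold change 1.29, SE 0.123, adjusted p 3.71e-04). Slc5a8 had 55.5 and 32.1 CPM against 97.2 and 89.3 CPM (log2 fold change 1.09, SE 0.234, adjusted p 0.00995). Slc16a1 (MCT1) had a log2 fold change of -0.21 and did not pass. Of the vitamin, osmolyte and creatine carriers, the myo-inositol carrier Slc5a3 rose from 11.4 and 10.7 CPM to 24.3 and 21.7 CPM (log2 fold change 1.06, SE 0.162, adjusted p 0.00249). Slc5a6, which carries biotin and pantothenate, fell by 1.70 on the log2 scale (SE 0.288). Of its transcript 62.5% is near-identical to other genes, so its count is uncertain here and in the pulldowns below. Slc6a8 had 0.07 and did not pass.

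Of the remaining members 31 were tested, of which 7 rose and 6 fell. Slc5a11 (SMIT2, a second myo-inositol carrier) had 107 and 118 CPM in control against 23.1 and 23.9 CPM in DKO (log2 fold change -2.26, SE 0.126, adjusted p 6.64e-05). Slc1a3, a glutamate carrier, had counts of 96 and 119 against 10 and 21 (log2 fold change -2.70, SE 0.317). Slc6a18, a relative of Slc6a19 known from the kidney, had counts of 9 and 3 against 69 and 55 (log2 fold change 3.43, SE 0.469). Slc43a3 had counts of 19 and 7 against 89 and 53 (log2 fold change 2.53). Slc16a9 had 12.5 and 14.6 CPM against 32.3 and 26.2 CPM (log2 fold change 1.11, SE 0.172). Slc6a4, the serotonin carrier, rose by 0.62 on the log2 scale. Each of these genes kept its 2 DKO values on 1 side of its 2 control values.

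**Figure D2:**
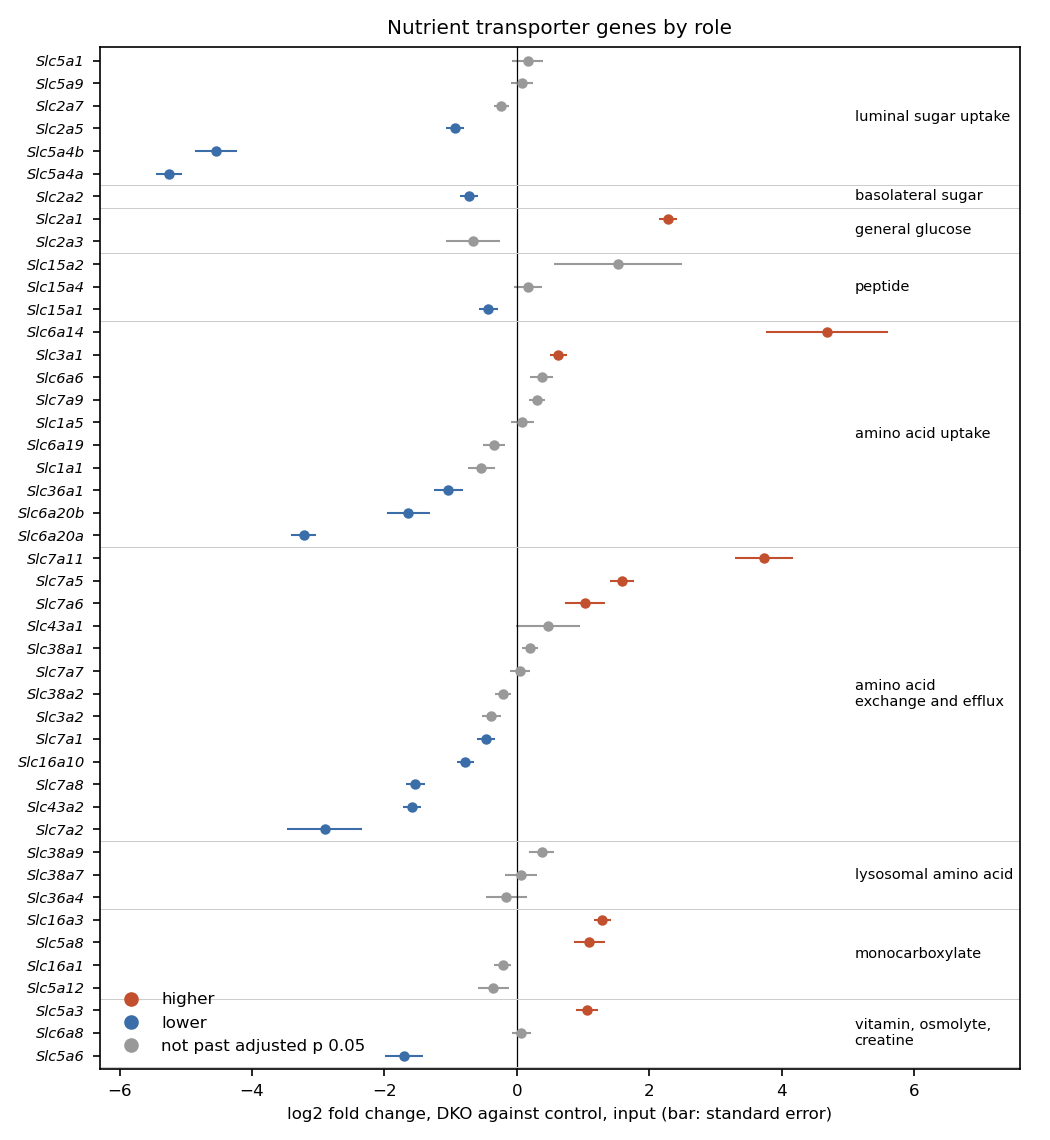
Log2 fold change of DKO against control in input (x axis) for the members with a described role in nutrient uptake that were tested, grouped by role. Bars are standard errors, red and blue points passed an adjusted p of 0.05 and grey points did not. Luminal and basolateral sugar carriers lie at or below 0 apart from Slc5a1 at 0.16 and Slc5a9 at 0.07, neither of which passed, and amino acid carriers spread to both sides.

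Of the 36 calls, 14 held under every alternative tried, 12 were lost only in the fit of all 12 libraries, and 10 were lost when 1 library was left out. The 10 were Slc3a1, Slc7a1, Slc7a6, Slc16a12, Slc16a13, Slc1a4, Slc2a10, Slc38a8, Slc6a4 and Slc15a1. The log2 fold change of Slc16a12 ran from -2.79 to -1.18 over the left-out libraries, and its adjusted p was 0.0603 without the first DKO library. That of Slc7a6 ran from 0.62 to 1.35. With 2 animals a group the p-values rest on the spread between 2 libraries.

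Markers of other cells and of gut position moved with the genotype in the same input libraries. Proximal markers summed to 3013 and 3969 CPM in control against 440.3 and 431 CPM in DKO. Lactase (Lct, log2 fold change -5.31) alone held 2564 and 3564 CPM of the control sums and 71.2 and 83.1 CPM of the DKO sums. Of the 6 markers 4 were called lower (Lct, Fgf9, Slc40a1, Cybrd1), while Gata4 (0.04) and Pdx1 (-0.32) did not pass. The 5 ileal markers summed to 240 and 270.3 CPM in control against 348.3 and 274.7 CPM in DKO. Of the 5, 4 were tested and 3 were called higher (Slc10a2, Fgf15, Slc51b), and Fabp6 was not tested. Slc51a had 205 and 237 CPM in control against 260 and 215 CPM in DKO and did not pass (log2 fold change 0.10). Slc10a2, the ileal bile acid carrier, had counts of 4 and 9 against 136 and 121, and Fgf15 0 and 0 against 35 and 22. Stem cell markers summed to 707 CPM in both control libraries and 175 and 266 CPM in DKO, with 5 of 7 called lower, and 9 of 10 proliferation markers were lower. Enterocyte markers had 3 of 12 called lower (median log2 fold change -0.17). Among secretory cells, 3 of 7 goblet markers (Muc2, Clca1, Spink4), 3 of 5 enteroendocrine markers (Chgb, Cck, Neurod1) and 2 of 4 tuft markers (Trpm5, Avil) were higher. Of 6 Paneth markers Mmp7 was higher and Lyz1 lower. Of 5 villus tip markers Egfr was higher. Of 11 leukocyte markers tested 1 was higher and 4 lower, and of 4 fibroblast or endothelial markers 0 were called. The part of these shifts in the carrier changes was not tested.

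Other genes of nutrient uptake were read from lists written beside the carriers. Of 13 brush-border peptidases and disaccharidases, which supply the carriers with their substrates, 6 fell and 0 rose (Ggt1, Ace, Lct, Sis, Mme, Treh). Of 7 genes that keep the ion and proton gradients, the sodium-proton exchanger Slc9a3 rose by 1.54 on the log2 scale and the scaffold Pdzk1 fell. Among transcription factors of the absorptive programme, Klf5 (-0.68), Hnf4g (-0.71) and Ppara (-0.87) fell on the log2 scale, while Hnf4a had 0.08 and did not pass.

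Of 16 genes of the amino acid response, 8 rose and 1 fell, and their median log2 fold change was 0.45, against 0.00 over all genes. Those that rose were Wars, Psat1, Atf3, Chac1, Sesn2, Asns, Trib3 and Phgdh, and Aldh18a1, which makes a proline precursor, fell by 2.01 on the log2 scale. Atf4 itself had counts of 1233 and 1186 in control against 1365 and 1411 in DKO and did not pass (log2 fold change 0.28, adjusted p 0.124). Ddit3 had 0.12 and did not pass.

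J2 pulldown was compared with input of the same control animals to describe how far carrier RNA was recovered by the antibody. Carriers were more often below input than above it: 50 of 79 tested members had a negative value, with a median log2 fold change of -0.32, against -0.07 over all genes. By edgeR 11 members passed, 5 higher and 6 lower in J2, where 29.8% of 15923 genes passed, 15.2% higher and 14.6% lower. Without TMM scaling the split was 4 higher and 11 lower, where 27% of all genes passed. Without either control animal calls were lost over the whole table, with the spread then taken from the other groups. The members' median was -0.319 without the first and -0.239 without the second (all genes -0.066 and -0.048).

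Members recovered above input were Slc5a3 (log2 fold change 2.59, SE 0.353, adjusted p 0.00307), the glutamate carrier Slc1a2 (2.34), the glutamine carrier Slc38a1 (2.20), Slc7a1 (1.5) and Slc7a5 (1.37). Slc5a3 had counts of 123 and 128 in control input and 894 and 657 in control J2. Its same-animal log2 values of J2 minus input were 2.63 and 2.51. Members below input were Slc7a15 (-1.90), Slc5a4a (-1.80), Slc5a4b (-1.72), the proline carrier Slc6a7 (-1.66), Slc7a9 (-1.57) and Slc16a4 (-1.51). Slc7a9 had same-animal values of -1.54 and -1.61. The 2 control animals gave like values for these genes, except for Slc6a7, at -0.69 and -2.41. The 2 DKO animals were farther apart for several of them: J2 minus input was 0.40 and -2.70 for Slc5a4b, 1.03 and -0.46 for Slc7a1 and -4.31 and -2.49 for Slc16a4. With the animal as a block the call of Slc6a7 was lost (adjusted p 0.0604).

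K1 gave 20 called members in control of 76 tested, 6 higher and 14 lower, where 39.8% of 15908 genes passed, 19.7% higher and 20.1% lower. Without TMM scaling the split was 4 higher and 22 lower, and with DESeq2 it was 4 and 18, where 37.5% and 36.8% of all genes passed. The members' median was -0.44, against 0.00 over all genes. Without either control animal most calls of the whole table were lost. The median was then -0.449 without the first and -0.491 without the second (all genes -0.038 and -0.006). Higher in K1 were Slc5a3 (1.60, SE 0.292, adjusted p 0.00214), Slc38a1 (1.59), Slc1a2 (1.5), Slc7a1 (1.00), Slc6a6 (0.95) and Slc38a2 (0.60). Among the lower were Slc16a4 (-2.47), Slc6a7 (-2.24), Slc7a15 (-2.0), Slc5a4a (-1.57), Slc7a9 (-1.35) and Slc15a1 (-1.15). Slc38a6 was also lower (-1.52), but 82.7% of its transcript is near-identical to other genes, so its count is uncertain. The J2 and K1 comparisons share their input libraries and animals, and their values are set side by side only.

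**Figure D3:**
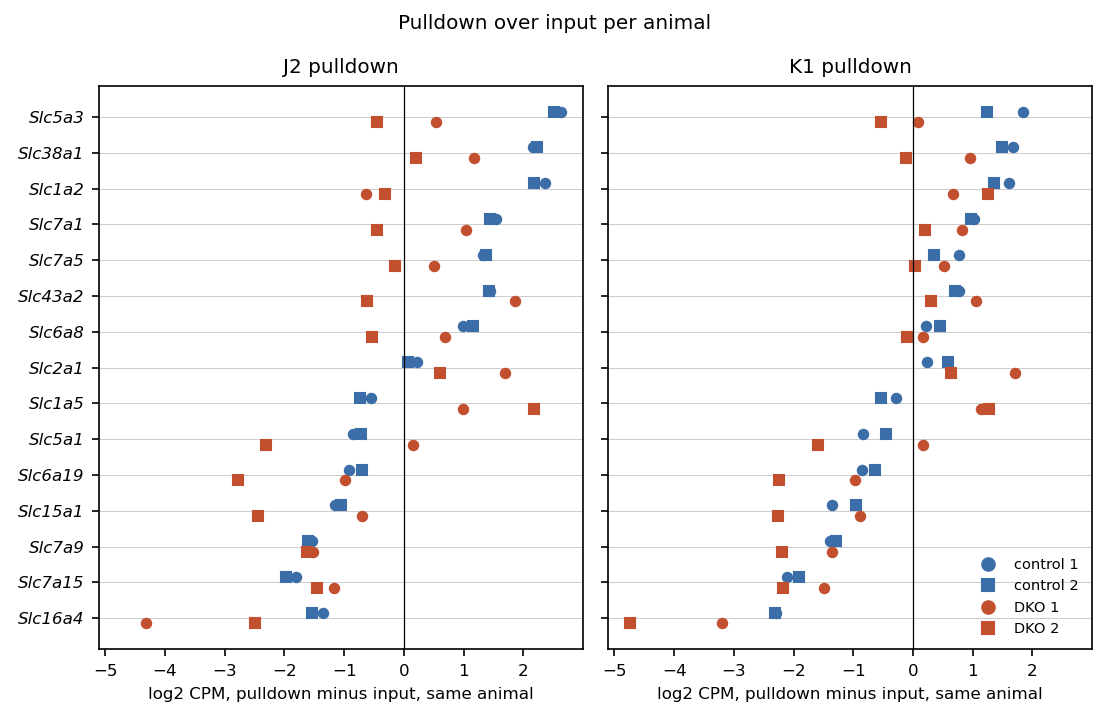
Log2 CPM of pulldown minus input in the same animal (x axis) for 15 members, with J2 on the left and K1 on the right. Blue is control, red is DKO, circles are the first and squares the second animal. The 2 control animals lie close together for most genes, while the 2 DKO animals are apart, as for Slc5a1 at 0.16 and -2.31 in J2.

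Enrichment was also set against length, taken as the summed annotated exon of a gene, which can exceed the length of any 1 transcript. In control J2 the median exon length was 11.5 kb for the 5 higher members and 3.10 kb for the 6 lower, against 4.43 kb over the 79 tested. Slc7a5, 1 of the 5, has 3.71 kb. In DKO J2 the medians were 3.51 kb for the higher and 3.60 kb for the lower members. The Spearman correlation of exon length with log2 enrichment was 0.517 over the 79 members and 0.404 over 15880 genes in control J2, and 0.408 and 0.326 in control K1. In DKO it was 0.0517 over the members and 0.209 over all genes for J2, and 0.0637 and 0.161 for K1. The points of each correlation share the same libraries and their depth, and genes are not independent replicates.

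**Figure D4:**
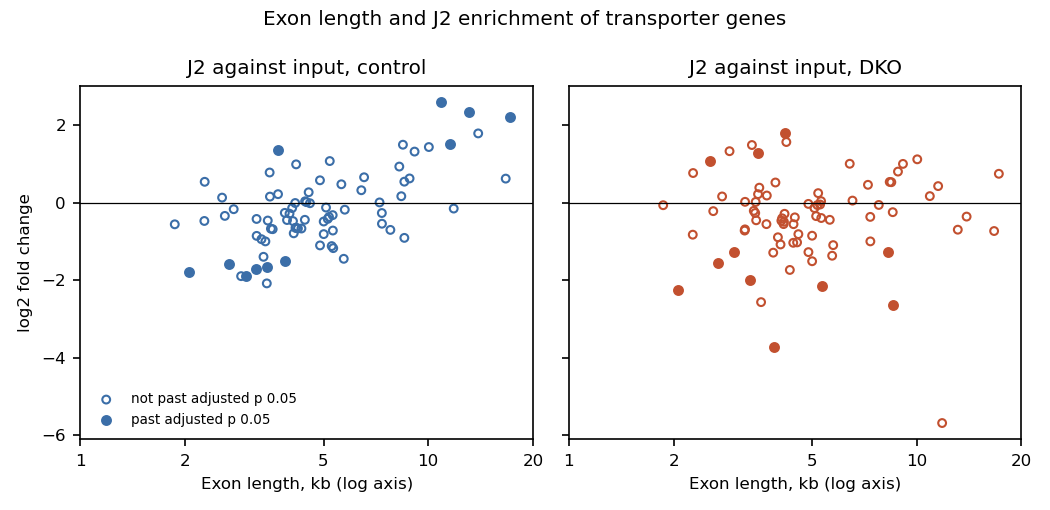
Exon length in kb (log axis) against log2 fold change of J2 over input for the 79 tested members, in control (left) and DKO (right). Filled points passed an adjusted p of 0.05. In control longer members tend to lie higher (Spearman 0.517), and in DKO there is little slope (0.0517). The lowest DKO point is Slc16a7, which had 0 counts in both DKO J2 libraries, so its fitted value depends on the prior count and only a bound of at least 1.37-fold lower holds.

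In DKO, J2 gave 11 called members, 3 higher and 8 lower than input, where 25.7% of 15923 genes passed, 12.2% higher and 13.4% lower. Higher were Slc1a5 (ASCT2, a glutamine exchanger, 1.80), Slc2a1 (1.29) and Slc16a11 (1.07). Lower were Slc6a20b, Slc5a4a, Slc5a8 (-2.16), Slc7a7 (-1.99), Slc7a9 (-1.57), Slc7a15 (-1.29), Slc1a1 (-1.27) and Slc16a4, which had 0 and 2 counts in DKO J2 and 42 and 60 in DKO input (14-fold lower, counting interval 3.78 to 117). With the animal as a block the calls of Slc1a1 (adjusted p 0.066) and Slc16a11 (adjusted p 0.0666) were lost. Without either control animal most calls of the whole table were lost. Without the first DKO animal the members' median was -0.946 (all genes -0.194). Without the second it was -0.061 (all genes -0.033), against -0.361 with both (all genes 0.098). The lean to lower values thus rests on the second DKO animal. Without TMM scaling the split was 1 higher and 20 lower, where 24% of all genes passed.

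K1 gave 19 called members in DKO, 3 higher and 16 lower, where 35.6% of 15908 genes passed, 14.6% higher and 21% lower. Slc2a1 (1.31), Slc1a5 (1.21) and Slc38a10 (1.20) were higher. Among the lower were Slc7a7 (-2.0), Slc5a8 (-1.84), Slc7a15 (-1.73), Slc7a9 (-1.70), Slc5a12 (-1.64), Slc6a19 (-1.39) and Slc15a1 (-1.38). Slc7a9, Slc7a15 and Slc16a4 were called below input in all 4 comparisons, Slc16a4 with 1 and 0 counts in DKO K1. Of the 19 calls, 7 held under every alternative tried: Slc1a1, Slc7a9, Slc7a7, Slc5a12, Slc5a8, Slc16a4 and Slc7a15. The members' median was -0.46, against -0.138 over all genes. Without the first and the second control animal it was -0.543 and -0.528 (all genes -0.156 and -0.153). Without the first DKO animal it was -0.957 (all genes -0.291), and without the second -0.215 (all genes -0.173).

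The difference of enrichment, pulldown minus input in DKO less that in control, asks whether the antibody recovered a gene differently between genotypes. For J2, 1 of 79 tested members passed by edgeR, where 2.71% of 15923 genes passed, 0.772% higher and 1.94% lower, and 12 had an unadjusted p under 0.05. DESeq2 called 6. The member was Slc5a3, with a difference of -2.43 (SE 0.488, adjusted p 0.0458). With the animal as a block its adjusted p was 0.0712, and 0 members passed, as did 0 genes over the whole table. Without either control animal calls were lost over the whole table. The members' median difference was -0.32, against 0.00 over all genes. It was -1.025 (all genes -0.141) without the first DKO animal and -0.026 (all genes -0.113) without the second, so its distance from all genes rests on the second DKO animal.

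For K1, 4 of 76 members passed, 1 higher and 3 lower in DKO, and 10 had an unadjusted p under 0.05. Of 15908 genes 5.47% passed, 1.37% higher and 4.1% lower. Without TMM scaling all 4 called members were lower, and Slc1a5 was not among them. The members' median difference was -0.20, as it was over all genes. Without the first DKO animal it was -0.531 (all genes -0.419), and without the second 0.042 (all genes -0.22). Without either control animal nearly all calls of the whole table were lost. With counts thinned to the shallowest library, and in the fit of all 12 libraries, 0 members passed, where 1.99% and 0.356% of all genes did. With the animal as a block 6 passed, the added ones being Slc38a1 (-1.13, adjusted p 0.0428) and Slc7a7 (-1.195, adjusted p 0.0437).

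Slc5a3 (ENSMUSG00000089774.2, chr16:92058322-92087473) had counts of 123 and 128 in control input and 245 and 247 in DKO input. In J2 it had 894 and 657 counts in control against 115 and 42 in DKO, and in K1 600 and 317 against 96 and 29. The same-animal log2 value of J2 minus input was 2.63 and 2.51 in control against 0.54 and -0.45 in DKO, and that of K1 minus input 1.84 and 1.24 against 0.08 and -0.54. The groups did not overlap for either antibody, and the K1 difference was -1.75 (SE 0.421, adjusted p 0.0415). The pulldown counts come from libraries of unlike depth. Scaled, J2 held 55.8 and 47.7 CPM in control against 26 and 13.0 CPM in DKO. K1 held 32.4 and 20.1 CPM against 21.1 and 13.9 CPM, which overlap. Neither comparison of genotypes within a pulldown passed for Slc5a3. Its input level rose, from 11.4 and 10.7 CPM to 24.3 and 21.7 CPM, while its recovery relative to input was lower for both antibodies. Both differences thus include the rise in input.

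Slc1a1 (EAAC1, a luminal glutamate carrier) had same-animal K1 minus input values of 0.49 and 0.14 in control against -1.09 and -1.43 in DKO, a difference of -1.67 (SE 0.408, adjusted p 0.0431). Its counts in K1 were 505 and 320 in control against 23 and 14 in the shallower DKO libraries. Scaled, these were 27.3 and 20.3 CPM against 5.05 and 6.71 CPM. Of its exon length 31.9% overlaps a gene on the opposite strand. For J2 its difference was -2.20 (SE 0.490) and did not pass (adjusted p 0.0552).

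Slc16a9, a carrier linked to carnitine release, had values of 0.44 and 0.34 in control against -1.15 and -1.34 in DKO (difference -1.60, SE 0.343, adjusted p 0.0314). Its K1 levels were 13.4 and 14.55 CPM in control against 11.9 and 9.58 CPM in DKO, and the genotype comparison within K1 did not pass. Its input level rose, from 12.5 and 14.6 CPM to 32.3 and 26.2 CPM, and the difference includes that rise. Slc16a9 overlaps other genes over 23.5% of its exons. Slc1a5 was the 1 member with a higher K1 difference, at 1.63 (SE 0.359, adjusted p 0.0327). Its K1 minus input values were -0.29 and -0.54 in control against 1.13 and 1.27 in DKO. For J2 they were -0.56 and -0.73 against 0.99 and 2.18 (difference 2.45, adjusted p 0.0809). Each of the 4 genes had both DKO animals on 1 side of both control animals.

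**Figure D5:**
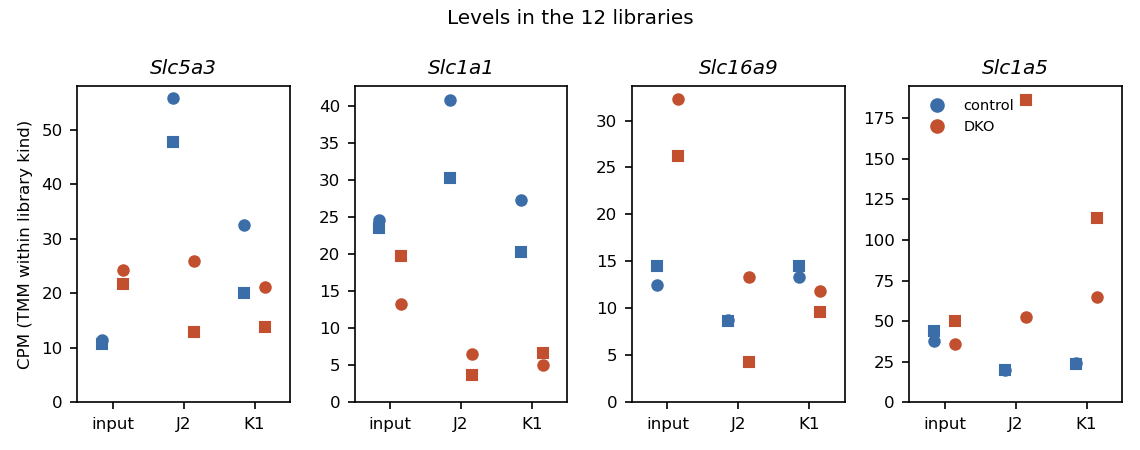
Scaled CPM in the 12 libraries for the 4 members with a called difference of enrichment, circles being the first and squares the second animal. CPM are scaled within a kind of library, so control and DKO compare within input, J2 or K1. For Slc1a5 the J2 value of the second DKO animal, 186 CPM, stands above the first at 52.7 CPM.

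The other carriers with a described role had differences that did not pass. The 6 luminal sugar carriers had a median difference of 0.44 for J2 and 0.38 for K1, and the 10 luminal amino acid carriers -0.53 and -0.39. For Slc5a1 the DKO animals disagreed, with J2 minus input values of 0.16 and -2.31 against -0.85 and -0.72 in control (difference 0.39, SE 1.20, adjusted p 0.863). Slc43a2, the member with the most counts in control J2, had 1.44 and 1.42 in control against 1.86 and -0.62 in DKO (difference -0.32, SE 1.02, adjusted p 0.868). In both genes the lower value belongs to the second DKO animal, whose pulldowns stood apart.

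DKO and control were also compared within each pulldown, where abundance and recovery act together. In J2, 10 of 72 tested members passed, 1 higher and 9 lower, where 12.2% of 13181 genes passed, 6.02% higher and 6.16% lower. Slc2a1 was higher, at 12.2 and 10.6 CPM in control against 163 and 75.0 CPM in DKO (log2 fold change 3.38, SE 0.497, adjusted p 0.0299). Slc5a4a had counts of 228 and 199 in control against 1 and 1 in DKO, 54.9-fold lower with a counting interval of 15.1 to 455. Slc1a2 had counts of 77 and 132 against 1 and 1, 26.9-fold lower with an interval of 7.35 to 223. Slc5a4b, Slc6a20a, Slc6a20b, Slc1a3, Slc7a2, Slc16a12 and Slc1a1 were also lower. Of the 10 calls only that of Slc5a4a held under every alternative tried. DESeq2 called 5 higher and 15 lower, where 21.9% of all genes passed. The members' median log2 fold change was -0.561, against 0.031 over all genes. Without the first and the second control library, where most calls of the whole table were lost, it was -0.518 and -0.34. Without the first DKO library it was -1.122 (all genes -0.075), and without the second -0.211 (all genes -0.1).

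In K1, 20 of 67 tested members passed, 8 higher and 12 lower, where 27.1% of 12888 genes passed, 13.2% higher and 13.9% lower. Without TMM scaling the split was 6 higher and 23 lower, where 32.5% of all genes passed. Slc2a6 had 1.24 and 1.46 CPM in control against 46.8 and 12.9 CPM in DKO (log2 fold change 4.5, SE 0.628, adjusted p 0.00450). Slc2a1 had 12.5 and 15.5 CPM against 184 and 87.7 CPM (3.29, SE 0.403, adjusted p 0.00308). Slc6a18 (3.46), Slc6a7 (2.12), Slc1a5 (1.89), Slc1a4 (1.87), Slc16a3 (1.73) and Slc7a5 (1.41) were higher as well. Lower were Slc5a4b (-4.02), Slc5a4a (-3.94), Slc1a3 (-3.50), Slc6a20a (-2.89), Slc5a6 (-2.43), Slc7a2 (-2.16), Slc1a1 (-2.05), Slc5a11 (-1.85), Slc43a2 (-1.46), Slc7a8 (-1.42), Slc36a1 (-1.30) and Slc6a20b, which had counts of 0 and 2 in DKO. Several other values rest on few DKO counts, so their size is poorly bounded. These counts were 12 and 4 for Slc5a4b, 3 and 4 for Slc5a4a, 6 and 0 for Slc1a3, 15 and 1 for Slc5a6 and 4 and 2 for Slc7a2. In 8 of the 20 the call held under every alternative tried: Slc1a5, Slc6a20a, Slc5a4a, Slc5a4b, Slc2a1, Slc1a3, Slc2a6 and Slc5a11. The members' median log2 fold change was -0.272, against -0.022 over all genes. Without the first and the second control library, where most calls of the whole table were lost, it was -0.454 and -0.158. Without the first DKO library it was -0.733 (all genes -0.088), and without the second 0 (all genes -0.081). Its distance from all genes thus depends on which DKO animal is included.

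Markers of other cells moved with the genotype in the pulldowns too. Fibroblast or endothelial markers summed to 5.30 and 20.4 CPM in control J2 against 157.8 and 34.9 CPM in DKO, and to 3.95 and 36.7 CPM against 195.3 and 86.2 CPM in K1, where 1 of 6 tested (Pecam1) was called higher and in J2 0 of 6 were. Enteroendocrine markers summed to 48.0 and 52.1 CPM in control J2 against 189.7 and 116.7 CPM in DKO with 0 of 5 called, and to 66.5 and 87.2 CPM against 273.9 and 206 CPM in K1, with all 5 called higher. Proximal markers had 1 of 6 called lower in J2 and 3 in K1, and stem cell markers 1 and 4 of 7. The part of these shifts in the carrier values of the pulldowns was not tested.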

How the data were processed

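What the authors deposited for each library is a table of raw counts, 1 whole number for every gene. Per the labels strand was ignored in the counting, and per the submitters' processing notes the tools named were STAR 2.7.10b, SAMtools 1.17, UMI-tools 1.1.4, HTSeq 2.0.2, DESeq2 1.40.1, edgeR 3.42.2, deepTools 3.5.2 and FastQC, with the builds mm10 and GRCm38.p4. Those notes were available here without roles or settings, so the counting mode and whether the molecular identifiers were used on these counts are not given in the sources used here. Per the labels' protocols, priming was by random hexamers, and ribosomal RNA was removed before paired-end sequencing. If identifiers were not used, amplified copies count as separate reads, and counting intervals (exact, 95%) cover counting error only.

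Gene identifiers were matched to GENCODE M21 (GRCm38) without their version for 48144 of 48526 rows. The closing rows for reads outside genes (6.76% to 27.0% of listed reads), ambiguous reads (3.65% to 6.11%) and reads aligned to several places (5.54% to 46.7%) stayed out of library sizes and tests. The members, gene lists and motifs were chosen with earlier results of these data known. Groups came from the sample titles. Genotypes were compared separately in input, J2 and K1 (fits of 4 libraries), and pulldown with input within a genotype and as a difference between genotypes (fits of 8 libraries). These fits used the quasi-likelihood test of edgeR 4.0.16 (R 4.3.3) after TMM scaling. Genes were filtered by filterByExpr (minimum count 10), and p-values were adjusted by Benjamini-Hochberg over all genes tested. All adjusted p-values are from this test, and SE is the standard error of a log2 fold change. Per-animal log2 CPM used a prior count of 2. Near-identical transcript sequence was sought with blastn 2.17.0+, and the fits were tested on simulated data.

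Genes were named as members with a described role in nutrient uptake and, in each comparison, up to 10 members a direction with the largest change among those called, with a mean of at least 20 counts and no overlap between the sides. A few called members outside that rule (Slc6a14, Slc6a4, Slc38a8, Slc6a18 and Slc6a7 in K1, and the 10 calls lost without a library) were named after their values were seen.

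Within a genotype the replicate number names 1 animal across input, J2 and K1, per the labels, and same-animal deviations of input and pulldown were correlated at 0.224 to 0.314 across genes, so those libraries are paired. Between genotypes the number is only a number. Alternatives were DESeq2 1.42.0, no TMM scaling, no filter, each replicate left out, counts thinned to the shallowest library, a fit of all 12 libraries and the replicate block. Some listed genes and a motif are not reported here.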

Additional observations from a re-analysis of the deposited data

Results flagged for a closer look

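The 5 differences of enrichment that passed the threshold are flagged because the effect of pulldown over input differed between DKO and control by a test of the difference itself (edgeR, interaction term). For J2 it was Slc5a3, at -2.43 (higher in input and lower in J2 of both DKO animals). For K1 they were Slc5a3 at -1.75, Slc1a1 at -1.67, Slc16a9 at -1.60 and Slc1a5 at 1.63. All 4 members had both DKO animals beyond both control animals. With thinned counts, and in the fit of all 12 libraries, 0 of the 4 K1 calls held. The K1 call of Slc1a5 was lost without TMM scaling, and the J2 call of Slc5a3 with the animal as a block. Over the 10 alternatives for each, the difference kept its sign, from -3.07 to -2.06 for Slc5a3 with J2, -2.21 to -1.45 for Slc5a3 with K1, -1.85 to -1.28 for Slc1a1, -1.80 to -1.44 for Slc16a9 and 1.48 to 2.03 for Slc1a5. The 5 calls were lost without either control animal, where a group is left with 1 library of each kind. Nearly all calls of the whole table were lost there, so that loss is not particular to these members.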

How the results depend on the processing

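Counts of called members were 36 in input, 10 for J2 and 20 for K1 between genotypes, 11 and 11 for J2 over input in control and DKO, 20 and 19 for K1 over input, and 1 and 4 for the J2 and K1 differences. The fit of all 12 libraries gave 16, 31, 10, 10, 3 and 0 for input, J2 between genotypes, K1 over input in control, K1 over input in DKO, the J2 difference and the K1 difference. No filter gave 29 and 32 for J2 and K1 between genotypes, 18 and 21 for J2 over input in control and DKO, and 9 for the J2 difference. No TMM scaling gave 21 and 32 for J2 and K1 over input in DKO and 3 for the J2 difference, and the median log2 fold change of all genes then ran from -0.48 to 0.01 over the comparisons (-0.13 in input), against -0.20 to 0.10 with it. DESeq2 gave 20 for J2 between genotypes and 6 for the J2 difference. Thinning gave 0 for the K1 difference. The replicate block gave 17 for J2 between genotypes and 0 for the J2 difference. In the paired comparisons of pulldown with input it changed no other count by over 1.5 times. The share of all genes called moved too. For J2 between genotypes it was 12.2% in the main fit, 36.1% in the fit of all 12 libraries and 21.9% with DESeq2. It was 16.9% without the filter and 17.2% with the replicate block.

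With 1 library or animal left out the counts ran from 31 to 36 in input, 1 to 48 and 9 to 36 for J2 and K1 between genotypes, 0 to 47 and 0 to 38 for J2 over input in control and DKO, 0 to 39 and 12 to 33 for K1 over input, and 0 to 36 and 0 to 19 for the differences. These fits leave a group with 1 library, which is assumed to vary like the others. Without the second DKO animal the members' median was 0.000 for K1 between genotypes and changed sign for the K1 difference (0.042). With thinning the median of the K1 difference also changed sign (0.123). Without the first DKO animal the medians for K1 between genotypes and the K1 difference were -0.733 and -0.531. Without the first and the second DKO animal the J2 difference was -0.762 and 1.427 for Slc2a5, -1.533 and 0.947 for Slc5a1, and -0.922 and 0.912 for Slc16a3, and the K1 difference of Slc5a1 was -1.005 and 0.812. The cause was not tested. The shallow DKO pulldowns and the 2 animals a group limit every pulldown comparison, so a member that did not pass there is not shown to be unchanged.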

Other observations

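Slc15a2 (PEPT2), a peptide carrier related to PEPT1, differed within a group by more than between groups. The second control animal had 1 count in input, 4 in J2 and 0 in K1, while the first control animal had 77, 55 and 56. The DKO animals had 145 and 69 in input, 16 and 14 in J2, and 9 and 2 in K1. The input comparison did not pass (log2 fold change 1.53, SE 0.963, edgeR adjusted p 0.252). The low value was present in all 3 libraries of 1 animal.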
